A study of Homo sapiens with 6 samples.

Results

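A set of 10 genes that the RAS-ERK pathway switches on, and whose products mostly act back on it, was followed in MV4-11, an established human cell line of acute myeloid leukaemia, after exposure to the compound 22d. The genes were DUSP4, DUSP5, DUSP6, SPRY1, SPRY2, SPRY4, SPRED1, SPRED2, ETV5 and PHLDA1. They were taken by symbol, and 10 of 10 were found among the 26364 genes of the table. Of these, 8 averaged 10 or more normalized counts across libraries and were tested, and SPRY1 and SPRED1 lay under that level.

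ERK, the last kinase of the cascade that runs from receptor tyrosine kinases through RAS and RAF to MEK, induces a set of genes that damp the cascade in turn. The DUSP proteins are phosphatases that remove the activating phosphates from MAP kinases, DUSP6 in the cytoplasm and DUSP4 and DUSP5 in the nucleus. Sprouty (SPRY) and Spred proteins act higher up, between the receptor, RAS and RAF, with SPRED1 and SPRED2 bringing the RAS inhibitor neurofibromin to the membrane. ETV5 is an ETS-family transcription factor and PHLDA1 a pleckstrin-homology-domain protein, both widely read as outputs of ERK signalling. MV4-11 cells carry an internal tandem duplication in the receptor tyrosine kinase gene FLT3, which keeps this receptor active, so transcripts of this kind are in common use as readouts of its signalling.

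The series is about FLT3, the deacetylase HDAC8, FOXO factors and p53 in FLT3-mutant leukaemia. It holds 6 RNA-seq libraries of MV4-11 cells grown in the same medium, 3 given the vehicle DMSO and 3 given 22d, known as an HDAC8 inhibitor, at 10 nM. Exposure lasted 18 h in both groups. All libraries come from 1 cell line and 1 time point, and the labels do not say whether replicates were separate cultures. A p-value here therefore weighs a group difference only against the scatter among these libraries, and that scatter may be technical.

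The libraries held 19995430 to 23749257 reads in genes. Of the 10 myeloid leukaemia markers looked up, 10 had a mean of at least 10 normalized counts, while 0 of 4 T cell, 0 of 4 erythroid and 0 of 4 epithelial and fibroblast markers did. Of 4 B cell markers, 2 reached that level, and the summed B cell marker level was 117 to 173 normalized counts under DMSO and 94.0 to 130 with 22d. The summed myeloid marker level was 86628 to 107245 with DMSO and 58742 to 71013 with 22d. LYZ, the lysozyme gene, made up much of that sum and fell from 44816 ± 10124 to 16624 ± 5232, whereas of the other 9 markers FLT3, CSF1R and ITGAM rose and none fell. The part of these marker differences in the results was not tested. The groups lay apart on the first principal component (80.5% of the variance), where 22d replicate 1 scored 64.3, the most distant from DMSO, and replicates 2 and 3 scored 39.9 and 44.2. Reads were found in 19285 genes in 22d replicate 3 and in 16268 to 17055 genes in the other libraries. Results that rest on 22d replicate 1 are given with and without it.

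The 10 genes did not move as one group. PHLDA1 and DUSP4 rose with 22d, SPRY2 and DUSP6 fell, and DUSP5, SPRY4, SPRED2 and ETV5 did not pass the test. In RNA of whole cultures, a change in how many cells express a gene and a change in its RNA per cell cannot be told apart. The test was limma-trend, and a gene was called where its p, adjusted by Benjamini-Hochberg across the 13297 genes fitted, was under 0.05. By this threshold 2 of 8 tested members were higher and 2 of 8 lower. Over all genes 58% passed, 28.5% higher and 29.6% lower, so a share of 50% called among the members lay close to the background. The median log2 fold change of the 8 was -0.21, against 0.01 over all genes. SPRY4, which is among the 8, passed the filter only through the DMSO libraries, which favours a fall. All 3 libraries of a group lay above all 3 of the other for 4 of the 8 members, compared with 65.4% of all genes. Without 22d replicate 1, 2 members were called, both higher, against a background of 54.6%. Under scaling by library totals 2 members were higher and 0 lower. That scaling raised the median log2 fold change of all genes to 0.22, and the all-gene calls became 5278 higher and 2766 lower instead of 3784 and 3934.

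**Figure D1:**
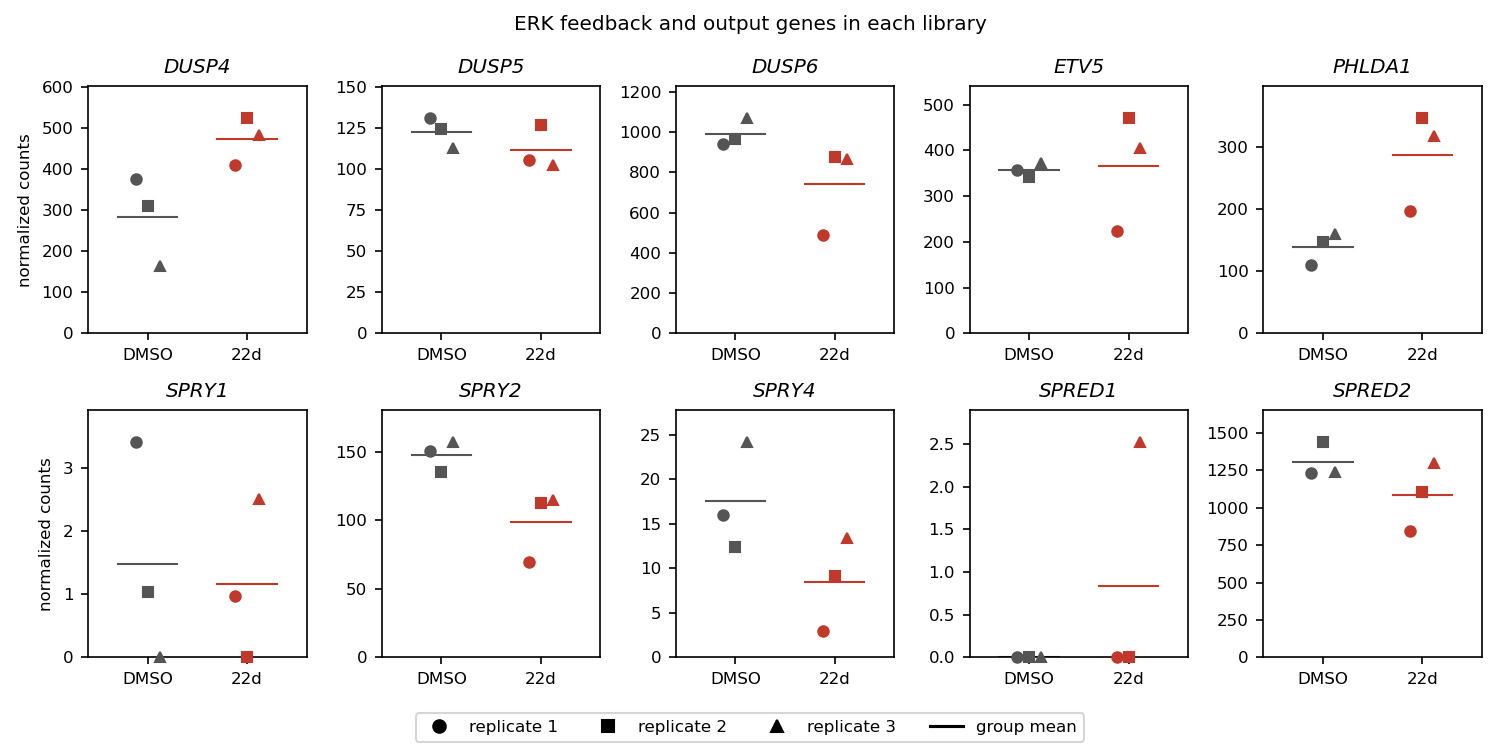
Normalized counts of the 10 members in each of the 6 libraries, 1 panel per gene, with DMSO and 22d on the horizontal axis, circles, squares and triangles for replicates 1, 2 and 3 and lines for group means. PHLDA1 and DUSP4 were higher in each 22d library than in each DMSO library, SPRY2 and DUSP6 were lower, and 22d replicate 1 was the lowest 22d library for 7 of the 8 tested members.

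Promoter sequence was available for 7 of the 10 members in RefSeq (GRCh38.p14), as 11 windows of the 250 bases before a start site. The windows were searched on both strands for TGACG (the half-site of the cAMP response element), TGANTCA (AP-1), CCGGAA (an ETS core), GTAAACA (FOXO) and the CArG box of serum response factor. The SPRY2 window is shown because SPRY2 fell and this window, 1 of its 3, holds an ETS core and TGACG, in capitals. The other SPRY2 windows held none of the motifs. The window shown lies on the minus strand of chr13:80341127-80341376, with TGACG at -190 to -186 and CCGGAA at -142 to -137 from the start.
SPRY2: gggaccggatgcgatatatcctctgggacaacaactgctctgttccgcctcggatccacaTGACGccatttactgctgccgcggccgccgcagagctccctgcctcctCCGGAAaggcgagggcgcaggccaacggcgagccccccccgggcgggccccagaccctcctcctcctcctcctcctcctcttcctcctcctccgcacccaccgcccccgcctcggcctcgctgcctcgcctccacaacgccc
The window of SPRY4, of which 170 of 250 bases lie in exons of that gene in GENCODE, held TGACG at -68 to -64 (26 bases of chr5:142324301-142324326, minus strand), and the PHLDA1 window held the ETS core on the reverse strand at -89 to -84 (chr12:76031850-76031875, minus strand). All 250 bases of the PHLDA1 window lie in PHLDA1 exons in GENCODE, which starts the gene farther upstream than this RefSeq start, so the window is not upstream of the gene in that annotation. The same holds for the 250 bases of the DUSP6 and SPRED1 windows and of 1 SPRY1 window.
SPRY4: cttcggagccgTGACGgactgaattc
PHLDA1: ggagaggagtTTCCGGggctcgggtc
That SPRY1 window held CCGGAA too, and in the windows of DUSP6, SPRED1 and SPRED2 none of the 5 motifs was found. Over 35116 RefSeq windows of the same length, TGACG was present in 21.2%, CCGGAA in 14.5%, TGANTCA in 6.57%, GTAAACA in 2.98% and the CArG box in 1.16%. CCGGAA thus stood in windows of SPRY2, which fell, of PHLDA1, which rose, and of SPRY1, which was not tested. A match describes the letters of the window and not the binding of a factor, and no link between a motif and a change was tested.

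The phosphatase genes went in different directions. DUSP4, which encodes a nuclear phosphatase of ERK, JNK and p38 and lies on the minus strand of chr8:29333064-29350668 (GRCh38), had 374, 310 and 165 normalized counts in DMSO replicates 1 to 3. The 22d libraries had 410, 523 and 482. The groups did not overlap, although DMSO replicate 1 came close to 22d replicate 1 and DMSO replicate 3 stood well under the other 2. The mean rose from 283 ± 108 to 471 ± 57.4 normalized counts (SD over n = 3 libraries in each group, as in all means here). The log2 fold change was 0.81 (SE 0.24, adjusted p by limma = 0.011). Without DMSO replicate 3 the log2 fold change was 0.46 (limma adjusted p = 0.029), so that library carried a large part of the size but not the call.

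DUSP6, the ERK-selective cytoplasmic phosphatase on the minus strand of chr12:89347232-89353271, had 941, 966 and 1068 normalized counts with DMSO. With 22d it had 491, 874 and 868. Each 22d library was below each DMSO library, and 22d replicate 1 was far below the rest. The mean went from 992 ± 67.5 to 744 ± 220 normalized counts, a log2 fold change of -0.46 (95% interval -0.86 to -0.06, limma adjusted p = 0.049). This call sat at the threshold: it was lost in 10 of 15 alternatives, and without 22d replicate 1 the log2 fold change was -0.18 (limma adjusted p = 0.18). The authors' deposited table gives DUSP6 a log2 fold change of -0.40 with an adjusted p of 0.056. In the GENCODE annotation, 40.5% of the DUSP6 exon length is shared with AC024909.2 on the opposite strand, and reads of the pair cannot be told apart where strand was not used.

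DUSP5, the nuclear ERK phosphatase on the plus strand of chr10:110497838-110511544, had 131, 124 and 113 normalized counts under DMSO and 106, 127 and 102 with 22d. The groups overlapped, with 22d replicate 2 above 2 of the DMSO libraries. The log2 fold change was -0.14 with a 95% interval from -0.52 to 0.24 (limma adjusted p = 0.51), which leaves room for a moderate change either way. A pseudogene copy, DUSP5P1, had 71.7, 76.5 and 97.6 normalized counts under DMSO and 97.8, 108 and 106 with 22d, and how reads were divided between the pair is not given in the sources used here.

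DUSP4 and DUSP6 were also compared within each library. The log2 level of DUSP4 minus that of DUSP6, in normalized counts without length correction, was -1.33, -1.64 and -2.69 in the DMSO libraries and -0.26, -0.74 and -0.85 in the 22d libraries. Gene length is the same in every library, so only the change of this value between groups is read, and it was higher in each 22d library than in each DMSO library. The difference between groups was 1.27 (exact two-sided permutation p = 0.1, the smallest p that 3 against 3 libraries allow). DUSP4 was higher and DUSP6 lower in each 22d library than in each DMSO library. The separation and its p were therefore fixed by the values of the single genes and add no support to them.

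Of the Sprouty genes, SPRY2 fell. SPRY2, on the minus strand of chr13:80335976-80340951, had 150, 135 and 157 normalized counts under DMSO and 69.4, 112 and 115 with 22d. The groups did not overlap, and 22d replicate 1 was again the lowest. The mean fell from 148 ± 10.9 to 98.9 ± 25.6 normalized counts, a log2 fold change of -0.61 (95% interval -1.06 to -0.15, limma adjusted p = 0.025). Without 22d replicate 1 it was -0.37 (limma adjusted p = 0.089), without DMSO replicate 1 or 3 the adjusted p was 0.062 or 0.071, and under library totals the log2 fold change was -0.39 (adjusted p = 0.15).

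SPRY4, on the minus strand of chr5:142310427-142326455, was scarce. It had 14, 12 and 22 reads with DMSO and 3, 10 and 16 with 22d, which are 15.9, 12.4 and 24.1 against 2.93, 9.13 and 13.4 normalized counts. The groups overlapped, since 22d replicate 3 exceeded DMSO replicate 2. SPRY4 averaged 17.5 normalized counts with DMSO and 8.50 with 22d, so it passed the filter of 10 only through the DMSO libraries. The filter thus favoured a fall, and the alternatives in which SPRY4 passed add no separate support. The log2 fold change was -1.10 with a 95% interval from -2.20 to -0.01, and the limma adjusted p of 0.078 missed the threshold. With quantile normalization it passed at -1.47 (adjusted p = 0.023), without 22d replicate 3 at -1.50 (adjusted p = 0.033), and without 22d replicate 1 the value was -0.56 (limma adjusted p = 0.28).

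SPRY1, on chr4:123396795-123403760, was at the limit of detection with 3, 1 and 0 reads in the DMSO libraries and 1, 0 and 3 in the 22d libraries. It was not tested. The equivalent of 3 reads is 2.52 to 3.41 normalized counts, depending on the library, and SPRY1 did not exceed that level in any of them. The SPRY2 minus SPRY4 difference within libraries shifted by 0.50 between the groups on the log2 scale (exact two-sided permutation p = 0.4), and by 0.19 without 22d replicate 1. Because SPRY4 passed the filter only through the DMSO libraries, this shift is a description only.

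Of the Spred genes in the set, SPRED2 passed the filter on low values and SPRED1 did not. SPRED2, on the minus strand of chr2:65310851-65432637, had 1236, 1439 and 1240 normalized counts under DMSO and 847, 1107 and 1300 with 22d. The 22d library with the highest value, replicate 3, exceeded 2 DMSO libraries, and the other 22d libraries were below all 3. The log2 fold change was -0.28 (95% interval -0.60 to 0.03, limma adjusted p = 0.11), without 22d replicate 3 it was -0.43 (limma adjusted p = 0.028), and without 22d replicate 1 it was -0.12 (limma adjusted p = 0.42). SPRED1, on chr15:38252326-38357249, had 0 reads in 5 libraries and 3 reads, or 2.52 normalized counts, in 22d replicate 3. That library had reads in 19285 genes, the most of the 6 libraries. No fold is given, since both groups are at or under 3 reads per library.

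The ERK output genes differed from one another as well. PHLDA1, on the minus strand of chr12:76025447-76033932, had 110, 147 and 160 normalized counts in the DMSO libraries. With 22d it had 196, 346 and 318. Every 22d library was above every DMSO library, with 22d replicate 1 nearest to them. The mean rose 2.02-fold on the log2(value + 1) scale, from 139 ± 25.8 to 287 ± 79.5 normalized counts, and the log2 fold change was 1.01 (SE 0.22, adjusted p by limma = 0.0014). The call was kept in 15 of 15 alternatives, and without 22d replicate 1 the log2 fold change was 1.26 (limma adjusted p = 7.9e-05). Annotated genes on the opposite strand, AC011611.3 and AC011611.4, share 6.85% and 9.65% of the PHLDA1 exon length.

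ETV5, on the minus strand of chr3:186046308-186110318, had 357, 342 and 373 normalized counts with DMSO, a narrow range. The 22d libraries were spread around it at 224, 470 and 405. Thus 22d replicate 1 was below and the other 22d libraries above every DMSO library. The means were 358 ± 15.3 and 366 ± 127 normalized counts and the log2 fold change -0.03 (95% interval -0.50 to 0.44, limma adjusted p = 0.91). Without 22d replicate 1 it was 0.29 (limma adjusted p = 0.085). ETV5 shares 2.83% of its exon length with DGKG on the same strand.

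**Figure D2:**
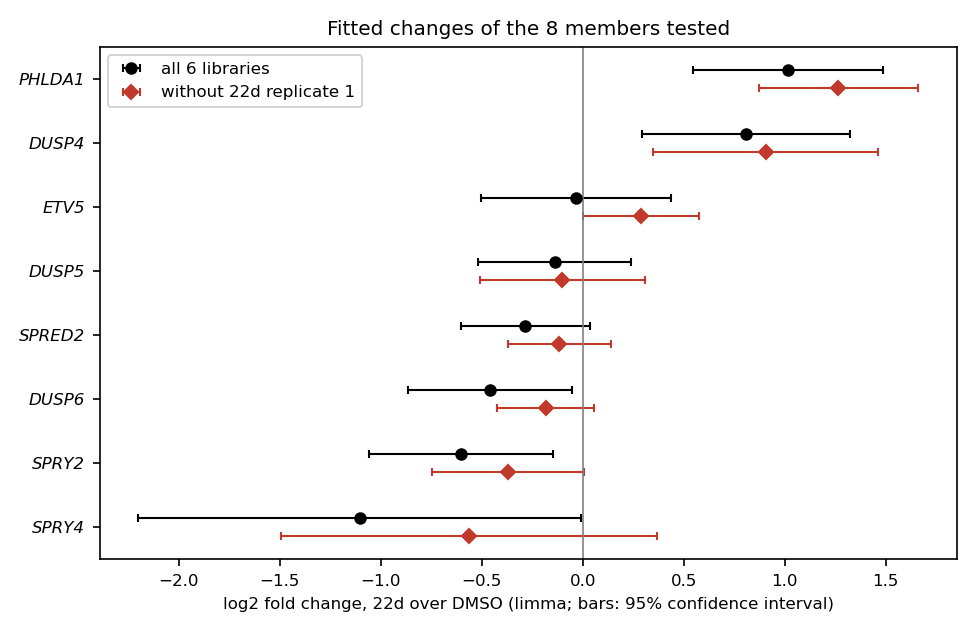
Log2 fold change of 22d over DMSO with its 95% interval for the 8 tested members, from limma with all 6 libraries (circles) and without 22d replicate 1 (diamonds). PHLDA1 (1.01) and DUSP4 (0.81) lay above 0 in both fits, and the intervals of DUSP6 and SPRY2 reached past 0 once 22d replicate 1 was left out.

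To set the levels of different genes in order, normalized counts were divided by the length in kilobases of all GENCODE exons of a gene merged. Which transcripts the cells make was not tested, so the order between genes also rests on this choice of length. The SDs and overlaps given here cover scatter between libraries and not that choice. In the DMSO libraries SPRED2 had the highest level of the 10 at 253 ± 22.5, followed by DUSP6 at 214 ± 14.6, and the DMSO libraries of these neighbours did not overlap. ETV5 at 61.6 ± 2.64, SPRY2 at 48.6 ± 3.60, DUSP5 at 46.9 ± 3.45 and DUSP4 at 39.0 ± 14.8 formed a middle group, in which SPRY2, DUSP5 and DUSP4 did not differ beyond their spread. PHLDA1 followed at 17.2 ± 3.19 and SPRY4 at 2.66 ± 0.916, with SPRY1 at 0.374 and SPRED1 at 0.

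With 22d the same genes stood at both ends of the order, and the middle was rearranged. SPRED2 at 210 ± 44.2 and DUSP6 at 161 ± 47.4 normalized counts per kilobase overlapped within their SDs. DUSP4 at 65.0 ± 7.91 moved from rank 6 to rank 3, next to ETV5 at 63.1 ± 22.0. SPRY2 at 32.6 ± 8.42 moved from rank 4 to rank 7, behind DUSP5 at 42.7 ± 5.08 and PHLDA1 at 35.5 ± 9.85, and these 3 overlapped within their SDs.

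The libraries with 22d differed among themselves in these genes. Within the group, 22d replicate 1 was the lowest library for 7 of 8 tested members (87.5%), against 39.4% of all genes tested. It was the lowest of all 6 libraries for 5 of 8 members, against 27.7% of all genes. SPRY4, with 3 reads in that library, is in each of these counts. The median log2 level in 22d replicate 1 minus the mean of the other two was -0.73 over the members and 0.00 over all genes. DUSP6 stood at -1.01 against the DMSO mean in 22d replicate 1, and at -0.18 and -0.19 in replicates 2 and 3. ETV5 was at -0.67 in replicate 1 and at 0.39 and 0.18 in the others, so the sign itself differed between libraries.

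Other ERK-induced transcripts had the same low library. Of 26 that were tested, 21 (80.8%) had their lowest 22d value in replicate 1, with a median of -0.50 against the other two. CCND1, which encodes cyclin D1, had 72.8, 64.1 and 68.0 normalized counts under DMSO and 10.8, 62.1 and 70.5 with 22d. EGR1, an immediate early transcription factor gene, had 185, 247 and 251 with DMSO and 83.1, 222 and 282 with 22d. In both genes 22d replicate 1 was the lowest library by a wide margin. For genes of the cascade itself the median was 0.14, for other DUSP genes 0.07 and for other inhibitors 0.05. What sets replicate 1 apart was not tested.

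**Figure D3:**
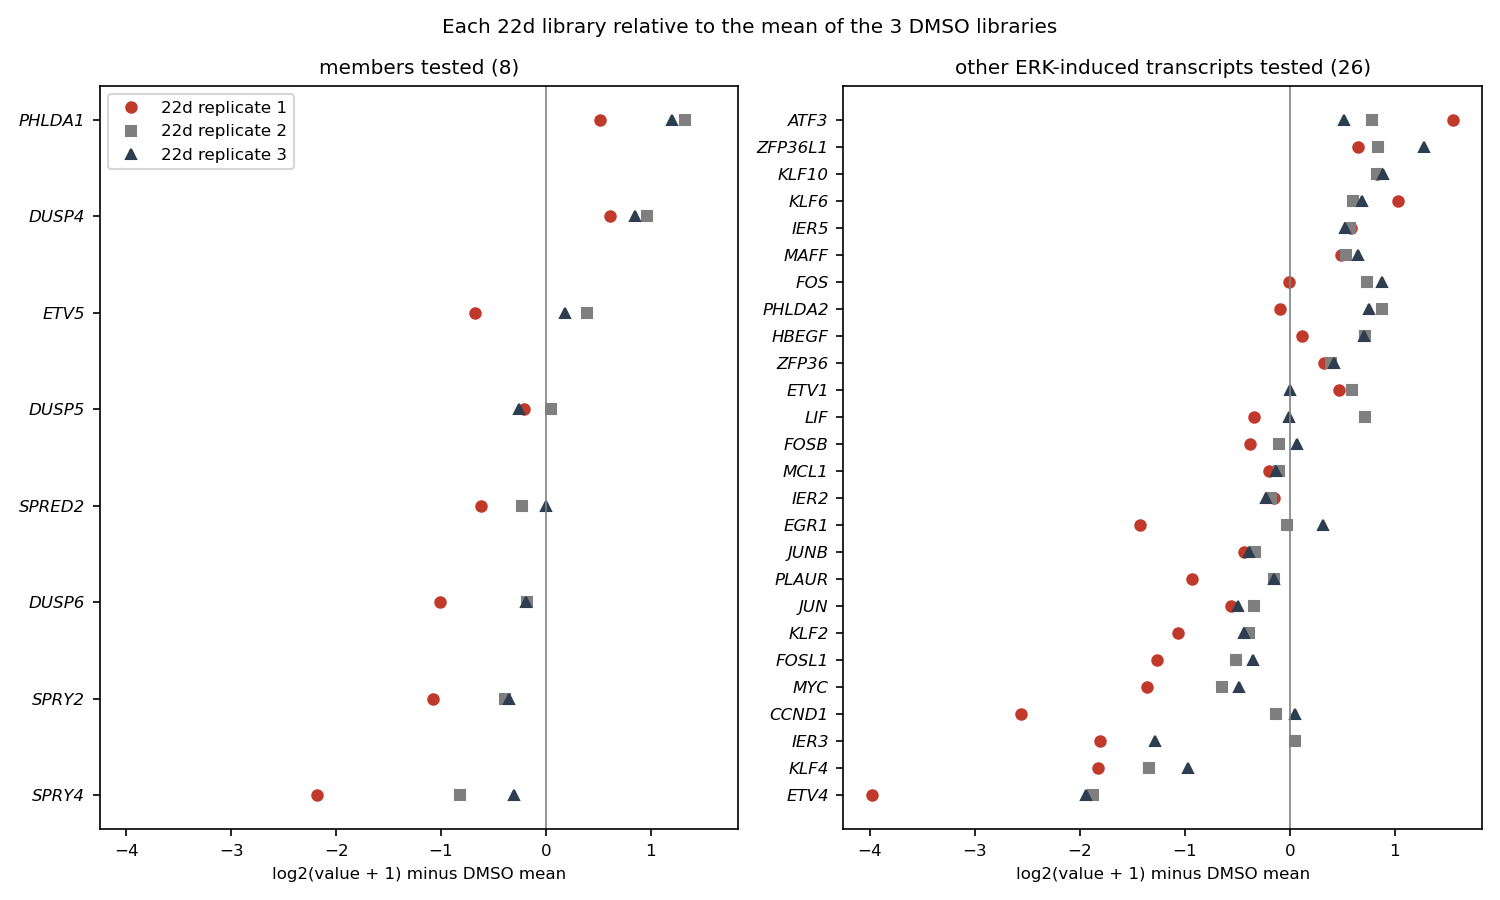
Level in 22d replicates 1, 2 and 3 as log2(value + 1) minus the mean of the 3 DMSO libraries, 1 row per gene, for the 8 members tested (left) and the 26 other ERK-induced transcripts tested (right). Replicate 1 stood lowest for 7 of the 8 members, at -1.01 for DUSP6 and -1.07 for SPRY2, and for 21 of the 26 other transcripts. ATF3 and KLF6, and by small margins IER5 and IER2, had their highest 22d value in it.

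The genes around the members were read in 5 lists of the same pathway. In the cascade from FLT3 to ERK, 12 of 28 tested genes rose and 6 fell, with a median log2 fold change of 0.19. The share called was 64.3%, near the 58% of all genes tested. The leading rises were RPS6KA2, an ERK-activated ribosomal S6 kinase (1.38), SOS2, a RAS exchange factor (1.25), and the docking protein gene GAB1 (1.01). The leading falls were HRAS (-0.94), the adaptor gene SHC1 (-0.47) and the scaffold gene KSR1 (-0.45). FLT3 itself rose by 0.42 (limma adjusted p = 0.0055). The balance of this list depended on scaling: 16 rose and 2 fell with quantile normalization, and 18 rose and 1 fell with library totals, where SHC1 and KSR1 were no longer called.

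Among other DUSP genes 4 of 14 rose and 4 fell, with a median of -0.01, and 57.1% were called against 58% of all genes. DUSP10, a phosphatase with a preference for JNK and p38, had 222, 174 and 201 normalized counts under DMSO and 852, 586 and 609 with 22d. Its mean rose from 199 ± 24.1 to 682 ± 148, a log2 fold change of 1.76 (limma adjusted p = 2e-06). DUSP2, a nuclear phosphatase of ERK known from blood cells, had 593, 600 and 474 with DMSO and 118, 205 and 207 with 22d. It fell from 556 ± 70.8 to 177 ± 50.8, a log2 fold change of -1.68 (limma adjusted p = 1.6e-05). Both changes were larger than any of the members' and far outside the range of the other group. DUSP18 (0.71) and DUSP3 (0.58) followed among the rises, and DUSP23 (-0.89) and DUSP14 (-0.55) among the falls. With library totals this list had 5 rises and 2 falls, and DUSP14 was not called.

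Of 18 other inhibitors of receptor, RAS or ERK signalling, 7 rose and 5 fell, with a median of 0.26. This made 66.7% called, against 58% of all genes. SPRED3, the remaining Spred family gene, had 4, 0 and 2 reads with DMSO and 33, 11 and 19 with 22d, and its log2 fold change was 2.82 (limma adjusted p = 0.0029). With 2 DMSO libraries under 3 reads that size is loose: it ran from 1.70 with a pseudocount of 5 to 3.36 without DMSO replicate 1, and SPRED3 was called in all 14 alternatives that gave a value. Its mean of 10.8 normalized counts passed the filter of 10 only through the 22d libraries (2.25 with DMSO, 19.4 with 22d). The filter thus favoured a call in that direction, and the alternatives add no separate support. ERRFI1, an inhibitor of EGF-family receptors, rose by 1.83 and the RAS GTPase-activating protein gene DAB2IP by 1.33. PEBP1, which encodes the RAF kinase inhibitor protein, fell from 7660 ± 651 to 3637 ± 204 normalized counts (log2 fold change -1.07). LRIG1, an inhibitor of receptor tyrosine kinases, also fell (-0.99). With quantile normalization 10 of the list rose and 3 fell, and with library totals 11 rose and 3 fell.

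Of the 26 other ERK-induced transcripts, 9 rose and 7 fell, with a median of -0.14, so 61.5% were called against 58% of all genes. ETV4, the close relative of ETV5, fell where ETV5 did not pass: it had 355, 394 and 316 normalized counts under DMSO and 21.5, 95.8 and 91.5 with 22d. The mean went from 355 ± 39.1 to 69.6 ± 41.7, a log2 fold change of -2.60 (limma adjusted p = 0.00015). Against the DMSO mean ETV4 stood at -3.98 in 22d replicate 1 and at -1.87 and -1.94 in replicates 2 and 3. Its call was kept in 15 of 15 alternatives, with log2 fold changes from -2.96 to -1.91. KLF4 (-1.38) and IER3 (-1.01) were next, IER3 with groups that overlapped and a call lost in 7 of 15 alternatives. MYC fell by 0.83 on the log2 scale, and stood at -1.36 against the DMSO mean in 22d replicate 1 and at -0.65 and -0.48 in replicates 2 and 3. The leading rises were ATF3, a stress-induced transcription factor gene (0.95), ZFP36L1, an mRNA decay factor gene (0.92), and KLF10 (0.85). ATF3 was highest in 22d replicate 1, and its call was lost without that library (0.65, limma adjusted p = 0.051) and with quantile normalization (0.71, adjusted p = 0.06). With quantile normalization 6 rose and 7 fell, and with library totals 10 rose and 3 fell. Of 7 STAT5 output genes, which report another arm of FLT3 signalling, 1 passed: PIM3 fell by 0.69. That is 14.3%, against 58% of all genes. PIM1 (-0.26, limma adjusted p = 0.052) and SOCS1 (0.48, limma adjusted p = 0.073) lay just outside the threshold. Under library totals 3 STAT5 output genes were higher and 1 lower. With so few genes near the threshold, the count does not show whether that arm changed.

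**Figure D4:**
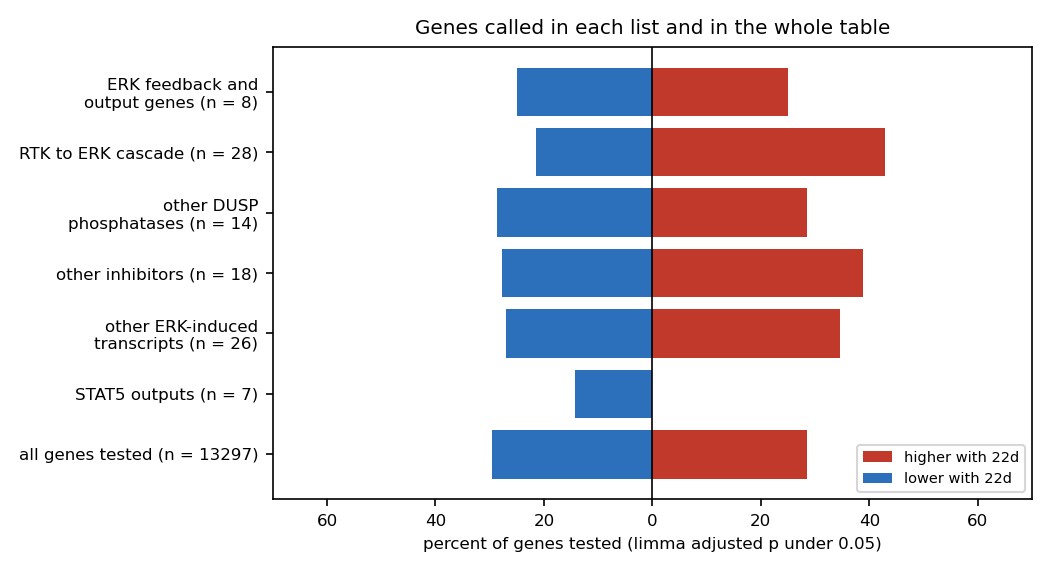
Percent of tested genes that limma called higher (bars to the right) or lower (bars to the left) with 22d, for the member set, the 5 pathway lists and all 13297 genes tested, with the number of genes tested beside each name. The members had 2 of 8 in each direction, against 28.5% higher and 29.6% lower over all genes, and the STAT5 outputs had a bar on the lower side only, which is PIM3.

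For members that averaged 100 or more normalized counts, the genes with the most similar pattern over the 6 libraries were sought among 10262 genes by the root mean square difference of their log2 levels, each relative to its DMSO mean. DUSP4 was nearest to GAS7 (0.109) and KIAA1614 (0.136), which shared its low value in DMSO replicate 3. DUSP6 was nearest to ASB13 (0.0953) and SLC38A1 (0.0985), and SPRY2 to PTGFRN (0.0719) and LINC01150 (0.0765). Like DUSP6 and SPRY2, these 4 genes had their lowest value in 22d replicate 1. PHLDA1 was nearest to LOC100288152 (0.114) and SLC9A3 (0.135), and ETV5 to MMP25-AS1 (0.0841) and ALOX12P2 (0.109). SPRED2 was nearest to PTMS (0.0573) and SH3GLB2 (0.0614), and DUSP5 to PMS2P3 (0.0324) and ZNF772 (0.0413). With 6 libraries, such likeness is a description only.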

How the data were processed

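RNA of 3 DMSO and 3 22d libraries of MV4-11 cells was read from 1 deposited table. The submitters' processing notes name hg38 as the build and, as tools, DESeq2, HTSeq, STAR, cutadapt and FastQC. Their versions, the annotation and the strand setting are not given in the sources used here. Per the file headers, the table holds a normalized signal per library, the authors' log2 fold change, its standard error and test score, and the authors' p-values, raw and adjusted. The deposited signal is a read count divided by 1 size factor per library: whole reads could be recovered for 100% of values, to within 0.001 of a read, and edgeR then called 7723 genes. The floor of 3 reads covers counting error only, and the 95% intervals, from limma, reflect scatter between libraries.

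The test was limma-trend (limma 3.58.1, R 4.3.3) on log2(value + 1), without a block, over the 13297 genes that averaged 10 or more normalized counts. Fold changes are on that scale, which shrinks those of low genes. Alternatives used edgeR 4.0.16 and DESeq2 1.42.0 on the recovered reads, other filters, pseudocounts and scalings, and each replicate left out. Exon lengths and positions are from GENCODE v29 (GRCh38).

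The members and lists were chosen with earlier results of these data known, so no list was tested. Named were all members, up to 3 called genes with the largest rise and 3 with the largest fall per list, genes used as background, and the 2 nearest genes of each member with a mean of at least 100. CCND1, EGR1, MYC, PIM1, SOCS1, LYZ, CSF1R, ITGAM, KLF6, IER5, IER2 and DUSP5P1 were named after their values were seen. Some genes that this rule names are not reported here.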

Additional observations from a re-analysis of the deposited data

How the results depend on the processing

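Over the 15 alternatives, the calls of PHLDA1 (log2 fold change 0.86 to 1.26) and DUSP4 (0.46 to 1.05) were kept, while those of DUSP6 were lost in 10 and of SPRY2 in 4. Between 2 and 6 members were called when a replicate was left out, with 2 each without DMSO replicate 1, DMSO replicate 3 or 22d replicate 1, and 6 without 22d replicate 3. By library totals 2 members were called, and by edgeR and DESeq2 3 each. ETV5 changed sign with edgeR (0.066), DESeq2 (0.045), library totals (0.19) and without 22d replicate 1 (0.29), the range with a replicate left out being -0.25 to 0.29, and DUSP5 with library totals (0.080). All 5 of these reversed values came from genes that did not pass, and library totals also moved the median of all genes to 0.22. Of the STAT5 outputs, 4 were called under library totals and 1 to 2 with a replicate left out. Of the other ERK-induced transcripts, 9 to 15 were called with a replicate left out, 9 without DMSO replicate 1. The counts for all genes (6682 to 8044) and for the other lists stayed within 1.5 times. With the replicate number as a block, 5 members and 7419 genes were called, the fifth member being SPRY4 (log2 fold change -1.10, limma adjusted p = 0.045). As SPRY4 passed the filter only through the DMSO libraries, that call adds no separate support. Same-numbered libraries did not deviate together (correlations -0.03, -0.02 and -0.10). The deviations were taken from group means of 3 libraries, so this check cannot settle whether the numbers pair the samples. The SPRED1 and SPRED2 pair was not compared because SPRED1 lay under the filter. Beyond these constructions, the cause of each change was not tested. With 3 libraries a group, depth limits SPRY1, SPRED1 and SPRY4, for which 3 reads are worth 2.52 to 3.41 normalized counts.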
